A study of Homo sapiens with 24 samples.

Results

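The genes described here are the 38 human protein-coding genes for integrin and laminin chains, with 18 integrin α genes, 8 integrin β genes, 5 laminin α genes, 4 laminin β genes and 3 laminin γ genes, among 60675 identifiers in the count table. The rule that picks them uses gene symbols and no measured value. RNA from MIA PaCa-2 cells, a line from a human pancreatic carcinoma, was depleted of ribosomal RNA and sequenced. C/EBPδ-inducible cells (tet-on CEBPD) carried a doxycycline-responsive vector with the CEBPD cDNA, and CTRL cells (tet-on CTRL) carried the vector without it. Each line was taken at 0, 8, 24 and 48 h of doxycycline with 3 libraries per group, which gives 24 libraries in 8 groups. The labels list doxycycline at 2 µg/ml for all groups, 0 h included, while the methods of the study describe baseline cells kept without it, and the 0 h cells are taken here as untreated. The inducible cells are a pool of selected clones and the lines bear different fluorescent proteins. Clone, fluorophore and construct thus cannot be told apart in a difference between the lines at any time. The same holds for a difference between the lines in their change after doxycycline. The methods describe triplicate wells, and nothing ties the 3 libraries of a group to independent cultures beyond that, so the p-values measure only the spread between these libraries.

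Integrins are receptors made of 1 α and 1 β chain that span the plasma membrane and bind the extracellular matrix or, on blood cells, other cells. Laminins are secreted trimers of an α, a β and a γ chain and are the main adhesive proteins of basement membranes. The chains encoded by ITGA3 and ITGA6 bind laminins when paired with the ITGB1 chain, ITGA6 also pairs with ITGB4 in hemidesmosomes, the ITGA10 chain forms a collagen receptor with ITGB1, ITGA5 forms the classical fibronectin receptor, and ITGAV pairs with several β chains to bind ligands with an RGD motif, among them latent TGFβ. Epithelial cells and their carcinomas commonly express the laminin-binding integrins, which anchor them to the basement membrane.

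Sequence upstream of the start site is shown for the members whose change after doxycycline differed between the lines and that have an entry in the RefSeq promoter table (GRCh38.p14), with LAMB1 beside them as a member with a large line difference whose change was not called different. The table has an entry for 26 of the 38 genes. ITGA3 and ITGB4 are among the others. Each stretch is the longest piece of the 250 bases before the start that holds no annotated exon, written 5′ to 3′ on the strand of the gene, and capitals mark GC boxes (GGGCGG on either strand) and the degenerate C/EBP consensus TTNNGNAA, searched on both strands.
ITGA10, chr1:145910112-145910300, minus strand: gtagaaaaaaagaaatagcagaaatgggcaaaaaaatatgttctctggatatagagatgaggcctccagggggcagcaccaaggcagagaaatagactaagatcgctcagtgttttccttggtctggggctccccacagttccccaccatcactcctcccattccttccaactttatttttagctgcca
ITGA6, chr2:172427471-172427585, plus strand: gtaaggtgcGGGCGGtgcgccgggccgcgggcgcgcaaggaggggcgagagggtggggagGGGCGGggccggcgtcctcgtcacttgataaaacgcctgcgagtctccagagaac
ITGB1, chr10:32958326-32958436, minus strand: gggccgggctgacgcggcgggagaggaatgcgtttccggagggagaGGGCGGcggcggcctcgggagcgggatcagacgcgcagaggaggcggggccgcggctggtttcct
LAMB2, chr3:49133119-49133300, minus strand: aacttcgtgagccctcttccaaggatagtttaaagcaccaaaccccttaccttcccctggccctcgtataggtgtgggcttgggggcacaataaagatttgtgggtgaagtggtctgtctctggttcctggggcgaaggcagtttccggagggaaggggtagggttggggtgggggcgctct
ITGA5, chr12:54419267-54419516, minus strand: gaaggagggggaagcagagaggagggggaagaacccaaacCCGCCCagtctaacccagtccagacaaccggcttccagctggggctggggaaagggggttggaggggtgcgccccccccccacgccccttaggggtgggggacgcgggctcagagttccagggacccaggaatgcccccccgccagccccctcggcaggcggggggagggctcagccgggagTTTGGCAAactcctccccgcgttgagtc
LAMB1, chr7:108003214-108003411, minus strand: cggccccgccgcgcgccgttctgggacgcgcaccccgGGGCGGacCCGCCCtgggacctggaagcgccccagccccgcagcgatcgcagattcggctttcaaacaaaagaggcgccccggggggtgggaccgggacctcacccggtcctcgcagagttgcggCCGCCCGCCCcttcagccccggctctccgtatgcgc
Some genes have several windows in the table, and for each gene shown the window nearest its canonical start was used. In these windows of 250 bases the degenerate C/EBP consensus occurred for ITGA5, but not for ITGA10, ITGA6, ITGB1, LAMB2 or LAMB1. Over all genes it was found in 33.2% of 35116 windows of this length, and it was found in 4 of the 33 windows of the 26 members. The palindromic C/EBP site TTGCGCAA, each match of which is also a match to the degenerate consensus, was in 0.131% of all windows and in 0 of the 33 windows of the members. The GC box was in 42.6% of all windows and in 17 of the 33 windows of the members. The CCAAT box (CCAAT on either strand) was in 32.0% of all windows and in 5 of the 33. The TATA box (TATAAA) was in 10.7% of all windows and in 2 of the 33. These matches describe letters only. In GENCODE release 44 on GRCh38 the genes span chr17:75721328-75757818 for ITGB4, chr2:172427354-172506459 for ITGA6, chr17:50055968-50090481 for ITGA3, chr1:145891208-145910111 for ITGA10, chr10:32887273-33005792 for ITGB1, chr3:49121114-49133118 for LAMB2, chr12:54395261-54419266 for ITGA5 and chr7:107923799-108003213 for LAMB1, and the counts are over their exons.

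Libraries held between 12731237 and 22598595 counts, and levels are given in CPM (counts scaled to a library of 1e+06 after TMM normalization). Where none of the 3 libraries of a group exceeded 3 counts, which is 0.130 to 0.236 CPM depending on the library, the gene is called at the floor there. Replicate libraries were not copies of each other, with a chi-square statistic per gene from 1.66 to 16.7, and the highest values came from the 8 h groups. CEBPD itself stood at 1.32 to 4.43 CPM over the 12 CTRL libraries. In the inducible line its mean was 21.6 ± 2.36 CPM at 0 h (SD over 3 libraries), 249 ± 15.3 CPM at 8 h, 307 ± 12.6 CPM at 24 h and 204 ± 7.16 CPM at 48 h, so the inducible cells carried more CEBPD RNA before doxycycline too. The labelled cell type was checked with 8 markers of ductal pancreatic carcinoma, of which EPCAM, KRT7 and PDX1 stayed below 7 CPM in all libraries. The summed level of these 8 genes was 2279 to 3144 CPM in CTRL libraries and 179 to 316 CPM in inducible libraries, and KRT8, KRT18, KRT19 and SOX9 made up nearly all of it. The platelet list summed to at most 0.394 CPM and the endothelial list to at most 2.72 CPM in any library. The leukocyte list summed to 1.42 to 7.38 CPM outside the CTRL 48 h group, where it reached 20.2 CPM in 1 library, mostly from LYZ with up to 18.3 CPM. The fibroblast list summed to 137 to 690.3 CPM, nearly all from COL1A2, a collagen chain gene, while COL3A1, PDGFRB, DCN and COL1A1 stayed below 7 CPM.

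Of the 38 genes, 25 passed the filter on low counts in at least 1 of 13 comparisons and 13 passed it in none. ITGA11, ITGA8, ITGAD and ITGAL were at the floor in all 8 groups. The other genes tested in no comparison were ITGA1, ITGA4, ITGA9, ITGAX, ITGB3, ITGB7, LAMA1, LAMA4 and LAMB4, none of which had more than 17 counts in a library. Of the 25 genes tested, 18 were differentially expressed (Benjamini-Hochberg FDR under 0.01 by edgeR's quasi-likelihood test) in at least 1 comparison. ITGA2, ITGA2B, ITGA7, ITGAE, ITGB6 and LAMA3 were among those tested and never called. The share of all genes called in at least 1 comparison was not worked out, so the count of 18 shows no trait of these families. In the line comparison at 0 h alone, 20.1% of all genes tested were higher and 24.0% lower. ITGB1 was the most abundant member by count, from 662 to 1044 CPM. Per kilobase of its canonical transcript it stood at 224 CPM averaged over all libraries, ahead of ITGA3 with 22.9, LAMC1 with 19.5, ITGAV with 13.6, ITGB4 with 12.04 and ITGA6 with 11.8. These levels and their order depend on the length used, as the counts are over all annotated exons. The exons span 14561 bases for ITGB1 and 9802 for ITGA3, against canonical transcripts of 3735 and 4889 bases. For LAMC1 the lengths are 8446 and 7929.

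Inducible and CTRL cells were first compared before doxycycline, which asks how far the lines already differ. At 0 h, 22 members were tested, 8 were higher in inducible cells and 7 were lower. Among all genes tested at 0 h, 20.1% were higher and 24.0% lower, and the median absolute log2 fold change was 0.66 over the members tested and 0.25 over all genes. The 6 members lower in inducible cells at each of the 4 times were ITGA3, ITGA6, ITGB4, ITGB5, ITGB8 and LAMA5, and ITGAM, ITGB1, ITGB2, LAMA2 and LAMB1 were higher at each of them. The share of all genes called alike at all 4 times was not worked out, so lasting differences cannot be called particular to the members.

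The largest difference was in ITGB8, whose chain pairs with that of ITGAV to bind latent TGFβ. It stood at 29.4, 24.0 and 26.7 CPM in the CTRL libraries at 0 h and at 2.51, 2.66 and 2.76 CPM in the inducible ones. The groups did not overlap, and the log2 fold change was -3.35 (SE 0.112, adjusted p = 2.12e-15, edgeR). ITGA3 stood at 189.5, 197 and 197 CPM in CTRL cells and at 33.8, 36.5 and 34.9 CPM in inducible cells at 0 h. Its log2 fold change was -2.48 (SE 0.0401, adjusted p = 1.79e-20, edgeR), with no overlap of the libraries. ITGA6, ITGB4 and ITGB5, the last encoding a vitronectin-binding partner of ITGAV, were lower by log2 fold changes of -1.25, -1.18 and -1.04. These 5 genes stayed lower at 24 h with log2 fold changes of -3.83 for ITGB8, -2.89 for ITGA3, -1.95 for ITGA6, -2.13 for ITGB4 and -0.77 for ITGB5. Of the 8 carcinoma markers, 7 were tested at 0 h and 5 were lower, namely KRT8, KRT18, KRT19, MUC1 and SOX9, with KRT8 averaging 1561 CPM in CTRL cells and 74.4 CPM in inducible cells. KRT7 had a log2 fold change of 0.20 at 0 h, not past the test, and was higher at 24 h by 1.22. The part of these markers in the integrin differences was not tested.

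LAMB1, a laminin β chain gene, ran the other way. It stood at 12.6, 14.7 and 14.4 CPM in CTRL cells at 0 h and at 51.8, 48.9 and 45.3 CPM in inducible cells, a log2 fold change of 1.80 (SE 0.0700, adjusted p = 2.43e-14, edgeR) without overlap. The exons of LAMB1 overlap DLD on the other strand over part of their length, as do those of ITGAE, ITGA5, ITGA6, ITGA10, ITGB1, ITGB2, ITGAV, ITGB8, LAMA2 and LAMA5 with other transcripts, and since the strand setting of the counting is not known these values may hold reads of the partner. ITGB4, ITGA3, ITGB5, ITGAM, LAMB2, LAMC1 and LAMC3 have no such overlap. ITGAM and ITGB2 encode the chains of a leukocyte integrin and were higher in inducible cells at very low levels. ITGAM had 3 to 7 counts per CTRL library and 25 to 38 counts per inducible library at 0 h, and ITGB2 had 1 to 9 and 24 to 32 counts. Their log2 fold changes were 2.63 (SE 0.365) and 2.55 (SE 0.414), with adjusted p-values of 4.36e-06 and 2.97e-05 from edgeR. Of 6 leukocyte markers, 3 were at the floor in every group, among them PTPRC and CD3E, and the summed level was 2.31 to 7.38 CPM in inducible libraries and 3.61 to 4.93 CPM in CTRL libraries at 0 h.

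Smaller differences at 0 h were found in ITGB1 (log2 fold change 0.34), ITGA5 (0.37) and ITGAV (0.31), all higher in inducible cells, and in LAMA5 (-0.57) and LAMC1 (-0.15), both lower. LAMA2, the α chain of muscle and nerve basement membranes, was higher by 0.74 and LAMC3 by 1.12 on the log2 scale, the latter on 12 to 42 counts per library. LAMB2 and ITGA10 did not pass the test at 0 h and stood at 55.0 ± 0.786 against 55.1 ± 1.38 CPM and at 12.8 ± 0.734 against 13.1 ± 0.307 CPM (CTRL against inducible, SD, n = 3). Both were lower in inducible cells at 8, 24 and 48 h.

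**Figure D1:**
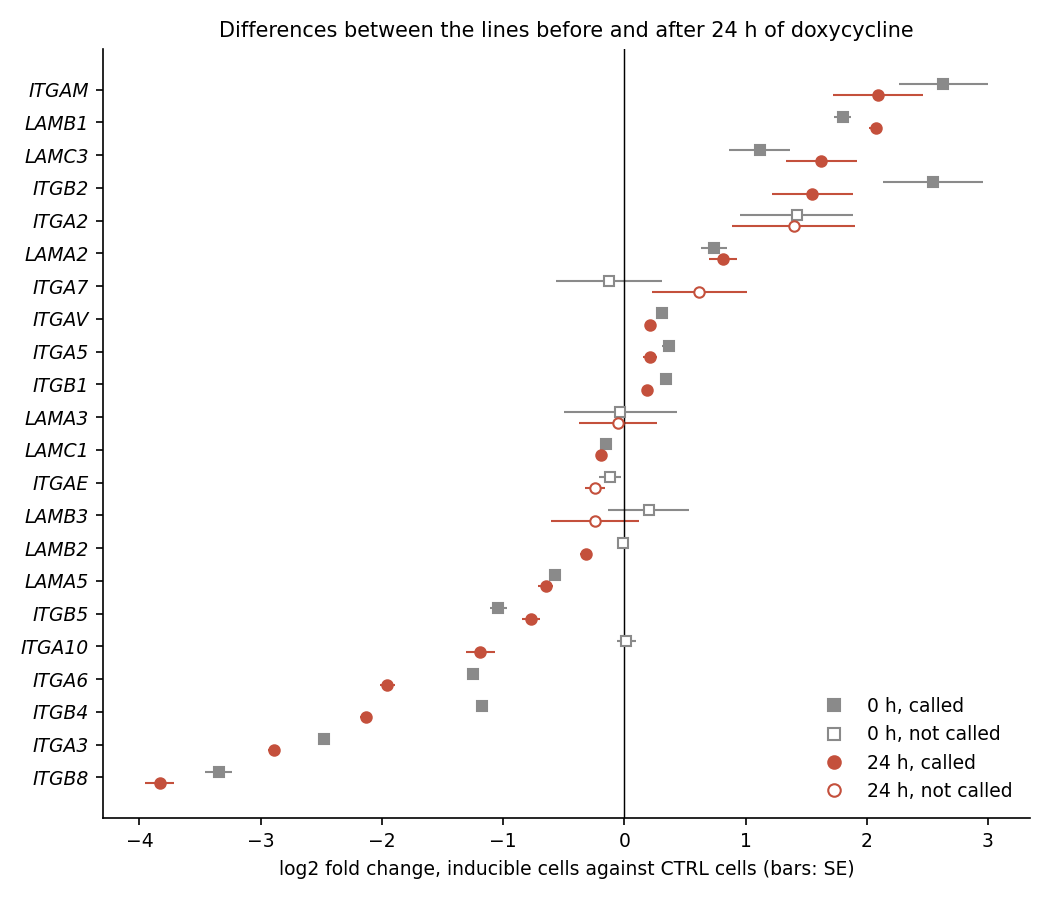
Log2 fold change between C/EBPδ-inducible and CTRL cells (x axis) of the 22 integrin and laminin genes tested at both 0 h (squares) and 24 h (circles), with bars for the standard error and filled symbols for calls at FDR 0.01. ITGB8, ITGA3, ITGB4 and ITGA6 lie farthest to the left and move further left at 24 h, LAMB1 lies at 1.80 and 2.07, and ITGA10 moves from near 0 to -1.19.

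At the later times the tally of line differences was alike in size. At 8 h, 25 members were tested, with 6 higher and 8 lower in inducible cells, against 14.4% and 17.5% of all genes. At 24 h, 23 were tested, with 8 higher and 9 lower, against 21.7% and 25.3%, and an analysis of variance on log2(CPM + 1) left 11 of these 17 calls. At 48 h, 23 were tested, with 6 higher and 9 lower, against 17.7% and 20.7%. Between 11 and 15 members were called at 48 h when single libraries were left out.

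The make-up of each chain family was described by dividing every gene's CPM by the length of its canonical transcript and taking its share of the family. Among integrin α chains, ITGA3 held 48.0% ± 0.966 (SD, n = 3) of the level per length in CTRL cells and 15.8% ± 0.66 in inducible cells at 0 h. ITGAV held 14.3% ± 1.04 against 32.8% ± 0.874, and ITGA5 held 8.43% ± 0.236 against 20.1% ± 0.716. The sum over α chains was 83.0 ± 0.418 CPM per kilobase in CTRL cells and 45.3 ± 0.388 in inducible cells at 0 h. Among β chains, ITGB1 held 85.5 to 89.3% in CTRL groups and 95.2 to 96.4% in inducible groups. Among laminin β chains, LAMB2 held 77.7 to 79.3% and LAMB1 17.8 to 20.7% in CTRL groups, whereas in inducible groups LAMB2 held 41.9 to 51.9% and LAMB1 46.1 to 55.1%. LAMC1 made up 96.1 to 99.1% of the γ chains in all groups. These shares are descriptions, and no test was run on them. They depend on the length chosen, as the counts are over all annotated exons of a gene. Those exons span 18592 bases for LAMB1 and 19336 for ITGAV, whose canonical transcripts have 5650 and 7039 bases. For LAMB2 the exons span 6865 bases and the canonical transcript 5692. Division by exon length would give LAMB1 a smaller share.

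**Figure D2:**
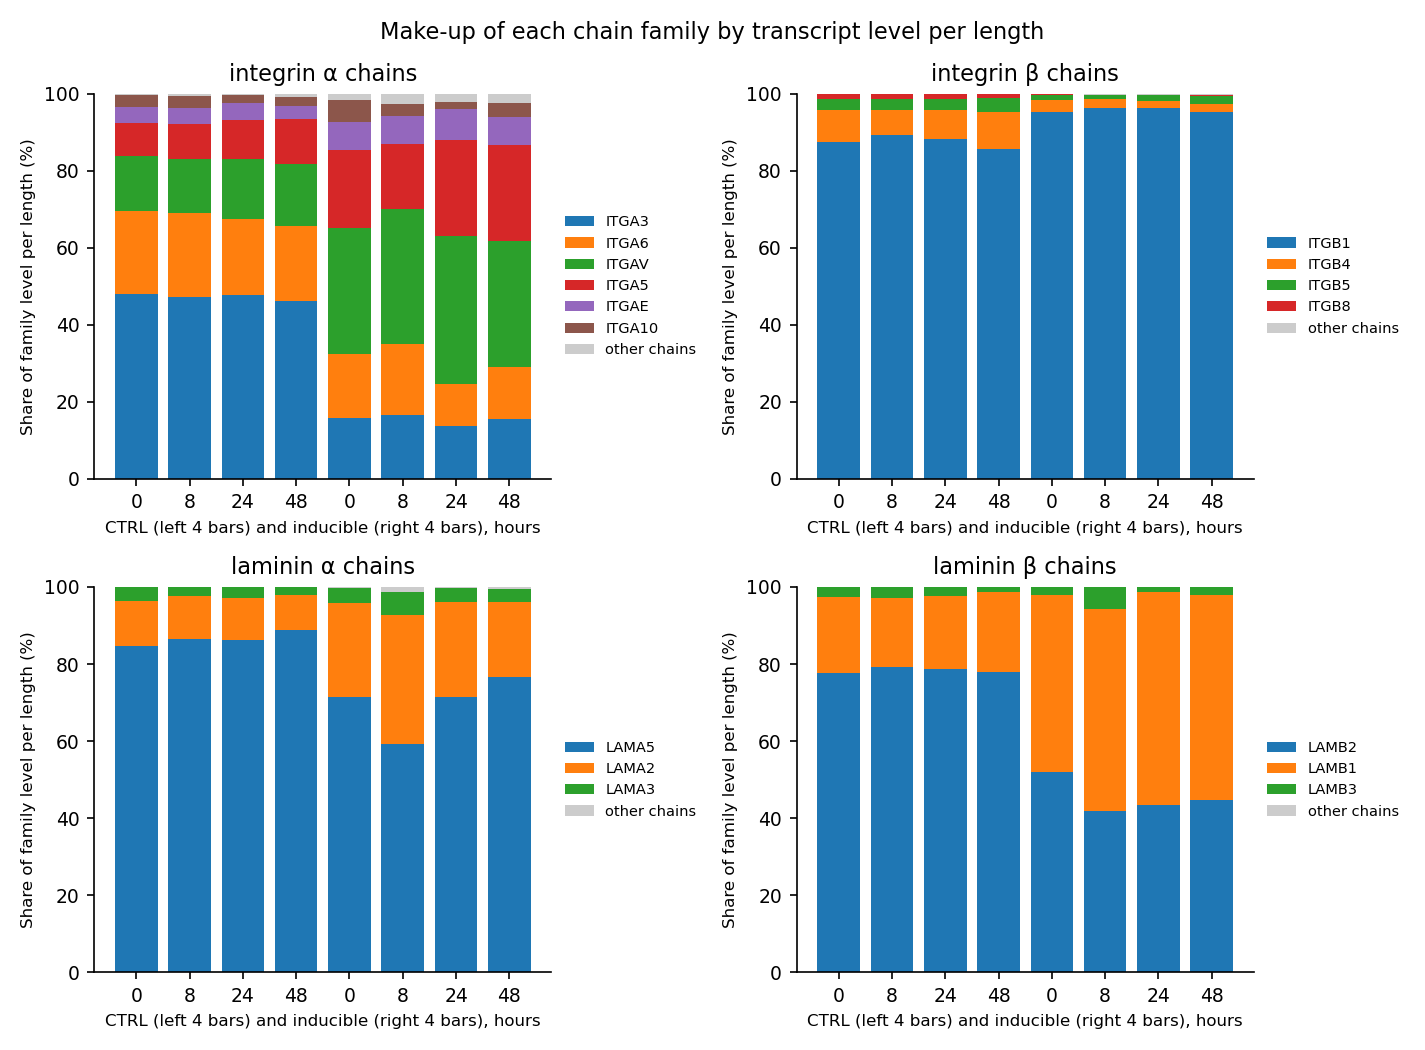
Share of each chain in the summed level per transcript length of its family (y axis, %), as the mean of 3 libraries in each group, with CTRL cells at 0, 8, 24 and 48 h in the left 4 bars and inducible cells in the right 4 bars of each panel. ITGA3 falls from 48.0% of α chains in CTRL cells at 0 h to 15.8% in inducible cells. By canonical transcript length LAMB1 takes about as much of the laminin β chains as LAMB2 in the inducible line, and by exon length its share would be smaller.

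Inducible cells after doxycycline were then compared with inducible cells at 0 h, which asks how the genes moved when CEBPD was switched on, with culture time changing along with it. After 24 h, 6 of 23 members tested were lower and 1 was higher, while 8.12% of all genes were lower and 7.36% higher. Those that fell were laminin receptor chains (ITGA3, ITGA6, ITGB4), the shared β chain ITGB1, the collagen receptor chain ITGA10 and the laminin chain LAMB2. LAMB1 rose. An analysis of variance on log2(CPM + 1) left 2 of these 7 calls, ITGB4 and ITGA10. The median log2 fold change was -0.20 over the members tested and close to 0 over all genes.

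ITGB4, whose chain anchors hemidesmosomes, fell furthest among the abundant members. In inducible cells it went from 50.7, 50.7 and 48.7 CPM at 0 h to 22.1, 22.9 and 21.8 CPM at 24 h, a log2 fold change of -1.16 (SE 0.0526, adjusted p = 1.64e-14, edgeR). In CTRL cells it went from 114, 112 and 111 CPM to 92.9, 95.9 and 102 CPM, a log2 fold change of -0.21 (SE 0.0392, adjusted p = 0.000997, edgeR). Libraries of 0 and 24 h did not overlap in either line. ITGA6, the partner of ITGB4, went from 44.7, 44.6 and 42.2 CPM to 20.7, 27.0 and 23.1 CPM in inducible cells, a log2 fold change of -0.89 (SE 0.0678, adjusted p = 2.57e-10, edgeR). In CTRL cells it stood at 105, 103 and 104 CPM and then at 93.7, 89.6 and 90.5 CPM, a log2 fold change of -0.18. Both chains thus fell in both lines by 24 h, without overlap of the libraries.

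ITGA10 had the steepest fall. It went from 13.4, 13.0 and 12.8 CPM to 3.20, 3.72 and 4.14 CPM in inducible cells, a log2 fold change of -1.81 (SE 0.109, adjusted p = 3.53e-12, edgeR), and from 13.0, 12.04 and 13.5 CPM to 8.51, 8.36 and 8.44 CPM in CTRL cells, a log2 fold change of -0.60. The libraries did not overlap in either line, and the lowest library still held 64 counts. ITGA3 went from 33.8, 36.5 and 34.9 CPM to 26.8, 22.3 and 25.2 CPM in inducible cells, a log2 fold change of -0.50 (SE 0.0631, adjusted p = 1.31e-06, edgeR). In CTRL cells it went from 189.5, 197 and 197 CPM at 0 h to 183, 179 and 187 CPM at 24 h. These libraries did not overlap either, but the gene was not called in CTRL cells.

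ITGB1, the shared β chain of most matrix receptors, moved little but tightly. It went from 963, 962 and 940.3 CPM to 828, 849 and 817 CPM in inducible cells, a log2 fold change of -0.20 (SE 0.0250, adjusted p = 1.47e-06, edgeR), and in CTRL cells it stood at 734, 753 and 757 CPM at 0 h and at 741, 736 and 699.6 CPM at 24 h. The CTRL libraries of the 2 times overlapped. LAMB2 went from 55.6, 56.1 and 53.5 CPM to 45.1, 41.6 and 46.4 CPM in inducible cells, a log2 fold change of -0.31 (SE 0.0488, adjusted p = 3.23e-05, edgeR), and its CTRL values of 54.3, 55.0 and 55.8 CPM and of 56.2, 54.1 and 55.1 CPM overlapped. LAMB1 went from 51.8, 48.9 and 45.3 CPM to 55.4, 55.3 and 56.8 CPM in inducible cells, a log2 fold change of 0.20 (SE 0.0491, adjusted p = 0.00344, edgeR). This last call was lost in 6 of 13 alternatives, with adjusted p-values from 0.00132 to 0.111.

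After 8 h in inducible cells, 5 of 24 members tested were lower and 2 were higher, against 16.2% and 14.8% of all genes. The inducible replicate 3 of 8 h, the shallowest library, stood apart, with a chi-square per gene of 12.3 and 12.5 against replicates 1 and 2, which gave 2.34 between them, and without it 6 members were called instead of 7. LAMA5, the α chain of the most widespread laminins, stood at 35.3, 37.9 and 37.2 CPM at 0 h and at 21.4, 24.4 and 21.7 CPM at 8 h. The libraries did not overlap, and the log2 fold change was -0.72 (SE 0.0589, adjusted p = 7.28e-10, edgeR). Its mean was 31.8 ± 3.25 CPM at 24 h and 39.1 ± 0.694 CPM at 48 h. LAMB2 fell by 0.56, ITGB4 by 0.49, ITGA5 by 0.27 and ITGA10 by 0.91 on the log2 scale, and ITGB1 rose by 0.11. LAMB3, a chain of the laminin of skin basement membranes, was called higher (log2 fold change 1.19, SE 0.344, adjusted p = 0.00715, edgeR), although its libraries overlapped, with 0.746, 2.34 and 1.24 CPM at 0 h and 2.74, 1.98 and 6.21 CPM at 8 h. The basal keratins KRT5, KRT14 and KRT17 were looked up after their values were seen. In the same 8 h libraries KRT5 stood at 0, 2.08 and 6.45 CPM and KRT14 at 0.158, 2.35 and 0.786 CPM. KRT17 stood at 0.158, 2.97 and 4.64 CPM. Like LAMB3, KRT5 and KRT17 were highest in replicate 3, while KRT14 was highest in replicate 2. Unlike LAMB3, each keratin was lower in replicate 1 than in replicate 2. Without the library with 6.21 CPM the log2 fold change of LAMB3 was 0.65 with an adjusted p of 0.0947, and DESeq2 gave an adjusted p of 0.125. At 48 h in inducible cells KRT5 stood at 4.41 and 5.67 CPM in replicates 2 and 3 and was lower in replicate 1. KRT14 was highest in replicate 2 with 2.34 CPM, and KRT17 ranged from 0.993 to 1.25 CPM. In these 48 h libraries LAMB3 stood at 1.59, 0.865 and 2.75 CPM and was not called against 0 h. LAMB3 and the keratins thus did not keep the same pattern at both times. The part of the cells or RNA that carry these keratins was not tested.

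After 48 h in inducible cells, 5 of 23 members tested were higher and 5 lower, against 19.2% and 19.6% of all genes. ITGB2, ITGB5, LAMB1, ITGA5 and LAMC1, the γ chain of most laminins, were higher, with log2 fold changes of 0.99, 0.68, 0.35, 0.20 and 0.14. ITGA10, ITGB4, ITGA6, LAMA2 and ITGAV were lower, with log2 fold changes of -0.73, -0.65, -0.43, -0.37 and -0.12. The call of ITGAV was lost in 9 of 12 alternatives, with adjusted p-values up to 0.215.

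CTRL cells after doxycycline, which show the effect of the drug and of culture time without the cDNA, had fewer calls at the first times. Their 8 h libraries held the highest chi-square per gene, 16.7 between replicates 1 and 3, with 6.40 and 5.93 for the other pairs. With such spread, few calls at 8 h do not show a lack of response. After 8 h, 0 of 21 members tested were higher and 1 was lower, against 0.879% and 0.767% of all genes, and that gene was ITGB4 with a log2 fold change of -0.48 (SE 0.0603, adjusted p = 0.00137, edgeR). This call was lost in 5 of 12 alternatives, with adjusted p-values up to 0.0153. After 24 h, 0 of 20 were higher and 3 were lower, against 2.84% and 3.29%, namely ITGA10, ITGB4 and ITGA6. After 48 h, 4 of 20 were higher and 0 were lower, against 15.2% and 14.8%. The 4 were ITGA5, ITGB5, ITGB4 and LAMC1, with log2 fold changes of 0.57, 0.31, 0.30 and 0.20. The totals in CTRL cells rest on single libraries, since the 48 h total was 8 without its first 48 h library and 1 without either the second 0 h library or replicate 3 of 0 h, and the 24 h total was 1 without the second 24 h library.

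**Figure D3:**
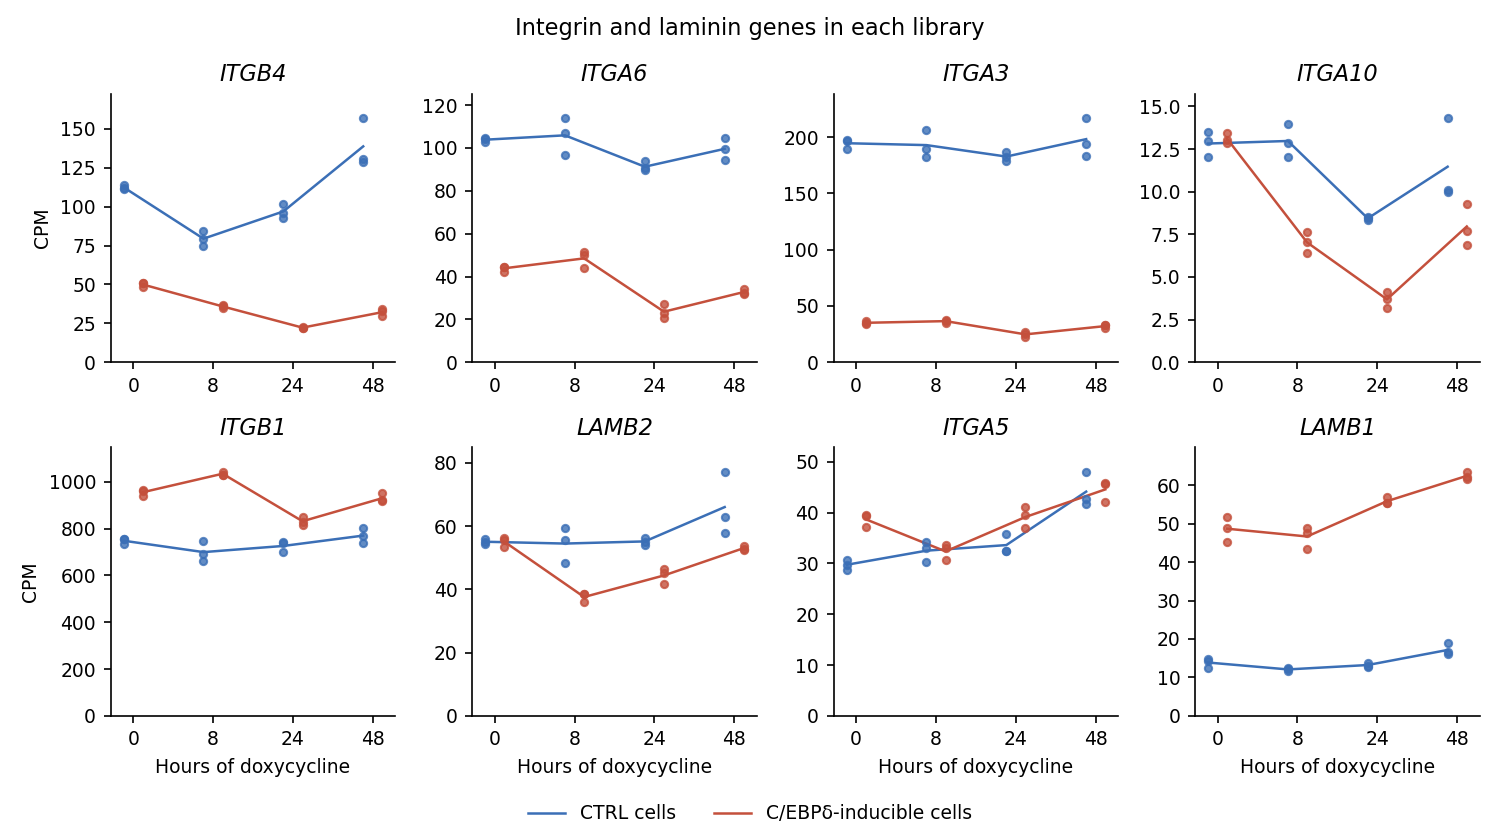
CPM in each library (points) and group mean (lines) of 8 integrin and laminin genes at 0, 8, 24 and 48 h of doxycycline (x axis, categories not to scale) in CTRL and C/EBPδ-inducible cells, on axes that start at 0. ITGB4, ITGA6 and ITGA3 are lower in inducible cells at every time, ITGA10 and LAMB2 start level and part by 8 h, and LAMB1 stays between 11.7 and 18.9 CPM in CTRL cells and between 43.5 and 63.6 CPM in inducible cells.

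The change from 0 h was then set against that of CTRL cells in an interaction term, which is the test of whether the lines responded differently. After 24 h, 0 of 23 members tested had a higher and 6 had a lower change in inducible cells, against 2.88% and 2.95% of all genes. The 6 were ITGA10, with a difference in log2 change of -1.20 (SE 0.135, adjusted p = 4.88e-07), ITGB4 with -0.95 (SE 0.0647, adjusted p = 8.99e-11), ITGA6 with -0.70 (SE 0.0777, adjusted p = 4.26e-07), ITGA3 with -0.40 (SE 0.0691, adjusted p = 0.000189), LAMB2 with -0.31 (SE 0.0633, adjusted p = 0.00161) and ITGB1 with -0.15 (SE 0.0361, adjusted p = 0.0073), all by edgeR. ITGA3, ITGA6, ITGB4 and ITGA10 encode chains of integrins that bind laminin or collagen. ITGB1 encodes the β chain shared by most matrix receptors, and LAMB2 a laminin chain. The receptor chains ITGA2 and ITGA7 and the laminin chains LAMA2, LAMA5, LAMB1 and LAMC1 were not called in it. ITGA10, ITGB4, ITGA6 and ITGA3 kept their calls in all 18 alternatives. LAMB2 lost its call in 1, the model of all 24 libraries, and ITGB1 lost it in 12 of 18, with adjusted p-values from 0.000496 to 0.0688.

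The time course of these differences was not shared. After 8 h, 0 of 25 members tested were higher and 2 were lower, against 0.906% and 0.783% of all genes, and they were ITGA10 (-0.93, SE 0.126, adjusted p = 0.000426) and LAMB2 (-0.54, SE 0.0914, adjusted p = 0.00247) by edgeR. At 8 h ITGB4 had a difference of 0.02 (SE 0.0739) and ITGA6 of 0.11 (SE 0.0891), neither past the test, and ITGB4 had fallen in CTRL cells too by then. After 48 h, 0 of 24 were higher and 3 were lower, against 2.80% and 2.66%. These were ITGB4 (-0.96, SE 0.0969, adjusted p = 1.52e-06), ITGA6 (-0.37, SE 0.0704, adjusted p = 0.00161) and ITGA5 (-0.38, SE 0.0876, adjusted p = 0.0078) by edgeR. ITGB4 at 48 h stood at 157, 129 and 130.4 CPM in CTRL cells and at 32.6, 29.7 and 34.3 CPM in inducible cells, above its 0 h level in the one line and below it in the other. ITGA5 rose in both lines by 48 h, and its call in the interaction was lost in 13 of 18 alternatives, with adjusted p-values from 0.00299 to 0.0276. The total at 8 h was 5 without replicate 3 of the 8 h CTRL group and 1 without any of 5 other libraries, namely the first and second inducible libraries of 0 h, the second CTRL library of 8 h and inducible replicates 2 and 3 of 8 h.

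**Figure D4:**
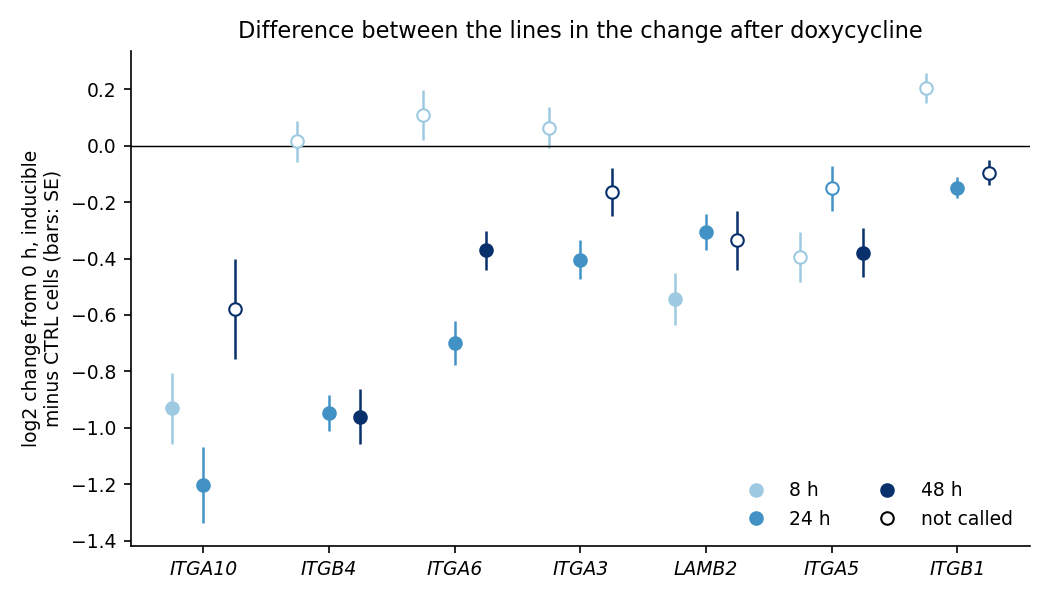
Difference between the lines in the log2 change from 0 h (y axis, inducible minus CTRL cells, bars for the standard error) at 8, 24 and 48 h for the 7 integrin and laminin genes called at any of these times, with open symbols where FDR 0.01 was not met. ITGA10 stands at -0.93, -1.20 and -0.58, and ITGB4 stands at 0.02, -0.95 and -0.96.

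Some members with large line differences were not called in the interaction. LAMB1 had an interaction of 0.27 at 24 h (SE 0.0968, adjusted p = 0.0784), ITGB8 of -0.48 (SE 0.223, adjusted p = 0.202) and ITGB5 of 0.27 (SE 0.111, adjusted p = 0.141) by edgeR, none past the test. ITGAV carries the largest share of α chains per canonical transcript length in inducible cells, a rank that depends on the length used. It stood between 73.9 and 114 CPM over all 24 libraries, with an interaction of -0.09 (SE 0.0595) at 24 h. LAMC1 stood between 136 and 186 CPM, with an interaction of -0.03 (SE 0.0449). ITGAE, whose chain binds E-cadherin on lymphocytes, was never called and stood between 9.73 and 14.3 CPM. ITGA2B, a platelet integrin chain, and ITGA7, a laminin receptor chain of muscle, were near the limit of the filter, with 0.137 to 0.898 CPM and 0.160 to 1.25 CPM.

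Several low chains varied widely within groups. ITGA2, a collagen receptor chain of epithelia, had a log2 fold change between the lines of 1.42 at 0 h (SE 0.468, adjusted p = 0.0148, edgeR), with overlapping libraries, and 3 of 11 alternatives called it, with adjusted p-values from 0.00419 to 0.377. It ranged from 0.433 to 7.42 CPM within the inducible 48 h group, and LAMA3, a laminin α chain of epithelia, from 0.676 to 3.85 CPM within the inducible 0 h group. ITGB6, an epithelial partner of ITGAV, had 6 to 10 counts in the CTRL libraries and 0 in each inducible library at 0 h. It had 36 counts in 1 inducible library at 48 h and 1 and 6 in the others, and no fold change is given for it.

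The genes that work with these receptors were taken from lists of binding partners. Of 30 focal adhesion genes, which link integrins to actin, 27 were tested in the 24 h interaction, with 3 higher and 3 lower, where 2.88% of all genes were higher and 2.95% lower. Those with the largest differences were PTK2B, a kinase related to focal adhesion kinase (1.38, SE 0.281), PXN, the scaffold paxillin (-0.48, SE 0.0386), and TNS3, a tensin (0.46, SE 0.0447). Of 5 hemidesmosome genes, all tested, 0 were higher and 3 were lower, namely COL17A1 (-0.55, SE 0.0623), ERBIN (-0.27, SE 0.0502) and DST (-0.24, SE 0.0390). The alternatives called 2 to 4 of the 5. From 0 to 24 h COL17A1 and DST fell in both lines, with log2 fold changes of -1.17 and -0.60 in inducible cells. In CTRL cells these were -0.61 and -0.35. ERBIN rose in CTRL cells (0.20) and was not called in inducible cells (-0.09). Between the lines, 2 of these 5 genes were higher and 2 lower in inducible cells at 0 h, against 20.1% and 24.0% of all genes. At 24 h, 1 was higher and 3 were lower, against 21.7% and 25.3%. COL17A1 was higher in inducible cells at both times, with log2 fold changes of 0.80 and 0.25. Of 14 other basement membrane genes, 6 were tested and 1 was lower, HSPG2, which encodes perlecan (-0.36, SE 0.0724). This call was lost in the model of all 24 libraries and without replicate 2 or replicate 3 of the CTRL 24 h group, each of which left 0. Of 16 genes for other integrin ligands, 9 were tested and 2 were lower, COL1A2 (-0.39, SE 0.0569) and ADAM9 (-0.29, SE 0.0435), and of 3 laminin receptors that are no integrins 0 were called. The median difference was -0.24 on the log2 scale over the hemidesmosome genes and 0.05 over the focal adhesion genes, and close to 0 over all genes tested. In the same interaction 5 of the 8 carcinoma markers were lower and 0 were higher, with differences of -0.74 for KRT8, -0.47 for KRT18, -0.85 for KRT19, -1.07 for MUC1 and -0.56 for SOX9. EPCAM (-0.65), KRT7 (1.02) and PDX1 (0.50) did not pass, and the part of these markers in the integrin result was not tested. In bulk RNA, fewer cells of a kind and less RNA per cell cannot be told apart.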

How the data were processed

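RNA sequencing libraries of MIA PaCa-2 CTRL and C/EBPδ-inducible cells were used. Reads were trimmed by the authors with Trimmomatic and mapped by HISAT2 against GRCh38, HTSeq gave the number of reads per gene, and the deposited values are whole-number counts per gene without normalization. Versions 0.36 and 2.3.4.3 are given for the first 2 tools in the submitters' processing notes, and the strand setting is not given in the sources used here. Identifiers were matched to GENCODE release 44 (56558 of 60675). With R 4.3.3 and edgeR 4.0.16, the groups compared were filtered with filterByExpr (minimum count 10), scaled by TMM and tested with the quasi-likelihood test, and p-values were adjusted over all genes tested (Benjamini-Hochberg, FDR 0.01). Levels are CPM scaled over 24 libraries. Integrin and laminin genes are named, except 1 that enters the counts and is not reported here by its own values, those called at 24 h within inducible cells or in the interaction get per-library values, and at most 3 genes are named per partner list, by absolute change. The members, lists and this rule were chosen with earlier results of these data known. Exact permutation of 3 against 3 libraries cannot give p under 0.1. The tests were checked on simulated counts with the same dispersion for all genes and no outlying library. That check cannot show whether calls hold under the spread seen here. Alternatives were DESeq2 1.42.0, RLE scaling, no filter, a minimum count of 30, all 24 libraries in one model, the replicate number as a block, leaving out each library and, for the line comparison and the inducible cells at 24 h, an analysis of variance on log2(CPM + 1). Those on single genes outside 4 comparisons and on the partner lists were added after seeing the data. Floors cover counting error only. Whether same-numbered libraries belong together was checked by correlating their deviations from group means, which lay between -0.138 and 0.251. Only for CTRL cells at 24 h against 0 h did all 3 numbers exceed 0.1 (0.174, 0.179 and 0.251), where the pairing comes from the numbers in the labels.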

Additional observations from a re-analysis of the deposited data

Results flagged for a closer look

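Members whose log2 change from 0 h differed between inducible and CTRL cells by the interaction test (edgeR, FDR 0.01) are listed here as results that differ between the lines, and each value is inducible minus CTRL. At 8 h the differences were -0.93 for ITGA10 and -0.54 for LAMB2. At 24 h they were -1.20 for ITGA10, -0.95 for ITGB4, -0.70 for ITGA6, -0.40 for ITGA3, -0.31 for LAMB2 and -0.15 for ITGB1. At 48 h they were -0.96 for ITGB4, -0.37 for ITGA6 and -0.38 for ITGA5. The calls of ITGB1 at 24 h and of ITGA5 at 48 h were lost in most of the alternatives.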

How the results depend on the processing

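Over all comparisons and the single genes reported, 1618 results under other settings kept their call or lack of one, 42 lost the call, 15 gained it and 0 reversed, and with a library left out these numbers were 2021, 76, 21 and 0. Analysis of variance on log2(CPM + 1) called 11 members instead of 17 between the lines at 24 h and 2 instead of 7 in inducible cells at 24 h. With all 24 libraries in one model, CTRL cells had 2 calls instead of 1 at 8 h, 1 instead of 3 at 24 h and 8 instead of 4 at 48 h. Without a filter the 48 h interaction had 5 calls instead of 3. The replicate block left 0 of 1 calls in CTRL cells at 8 h, where the numbers do not pair the libraries, and it moved no other total by over 1.5 times. With single libraries left out, totals in CTRL cells were 0 to 1 at 8 h, 1 to 3 at 24 h and 1 to 8 at 48 h, and those of the interaction were 1 to 5 at 8 h, 5 to 6 at 24 h and 2 to 4 at 48 h. The causes were not tested. Levels under about 1 CPM rest on few counts.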
